A study of Bos taurus with 6 samples.

Results

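The osteoclast marker genes ACP5, ITGB3, CTSK and MMP9 (4 genes) were followed through the depth of bovine articular cartilage. They were chosen by name, with earlier results of these data known. Every probeset (a set of array probes summarised as 1 value) that carries any of these symbols in the authors' annotated matrix was taken. This gave 9 of the 24016 probesets tested, namely 4 for ACP5, 3 for ITGB3, 1 for CTSK and 1 for MMP9. The arrays hold RNA from normal (grade 1) cartilage of the knees of 2 skeletally mature cattle aged 14 to 30 months, and no treatment or genetic change is named in the labels. The groups are the deep zone (DZ), cut from the lower 30% of the slices, the middle zone (MZ), from the middle 40%, and the superficial zone (SZ), from the upper 10%, with 1 array per zone and animal (n = 2 per zone, 6 arrays in all). The lowest slices lay towards the calcified cartilage. The labels call the arrays of one animal replicate 1 and those of the other replicate 2, and they are called animal 1 and animal 2 here.

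Osteoclasts are multinucleated cells of the monocyte lineage that attach to mineralised tissue, seal off a space beneath them, acidify it and dissolve mineral and matrix. They differentiate under the cytokines CSF1 and RANKL, whose signals converge on the transcription factor NFATC1. ITGB3, the beta-3 integrin subunit, pairs with ITGAV in the receptor by which osteoclasts hold on to bone matrix, and with ITGA2B on platelets. CTSK, cathepsin K, is the cysteine protease that cleaves collagen in the acid space, and MMP9, gelatinase B, is a metalloproteinase that cleaves denatured collagen. ACP5, the tartrate-resistant acid phosphatase, is the enzyme by which osteoclasts are stained in tissue sections. Cells of the same kind that resorb calcified cartilage are called chondroclasts. None of the genes is expressed by osteoclasts alone: CTSK is also made by chondrocytes and fibroblasts, and MMP9 by neutrophils.

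ACP5 and ITGB3 were higher in DZ than in both other zones, CTSK was bright in every zone, and MMP9 was high in the DZ of 1 animal. Of the 9 probesets, 4 passed the test as higher in DZ than in SZ, against 1.72% of all probesets called higher in that comparison, and 0 were lower, against 1.03% (2.75% in either direction). The same 4 passed as higher in DZ than in MZ, against 0.612% of all probesets, and 0 were lower, against 0.0916% (0.704% in either direction). They belonged to ACP5 and ITGB3, with 2 probesets each. In MZ against SZ limma called 0 of 9, against 0.0416% of all probesets (0.0167% higher and 0.025% lower), and 1 of 9 had an unadjusted p under 0.05. For counts at an unadjusted p, here and below, the share over all probesets was not computed, so they have no background beside them. The F test for any difference between zones called the same 4 probesets, against 1.84% of all. The median difference of the 9 probesets was 2.32 in log2 for DZ minus SZ, beside −0.06 over all probesets, and 2.34 for DZ minus MZ, beside −0.06. For MZ minus SZ it was −0.03, beside 0.00. The probesets of a gene come from the same RNA samples and are not replicates. In whole slices, fewer cells of a type and less RNA per cell cannot be told apart.

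**Figure D1:**
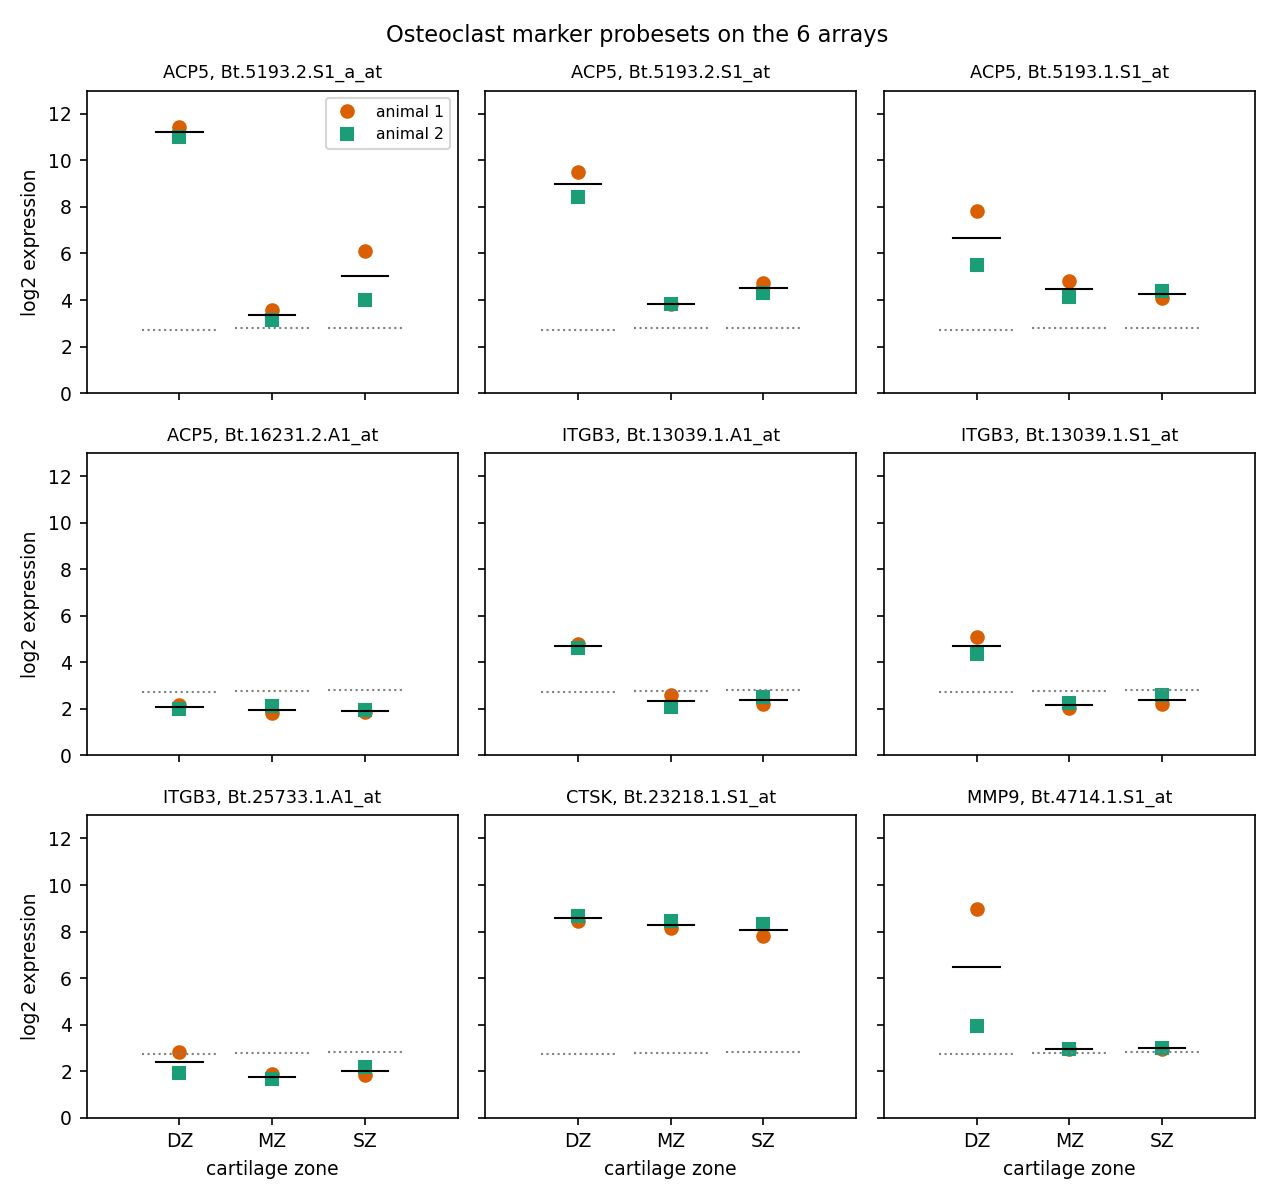
Log2 expression of the 9 probesets on the 6 arrays, by cartilage zone. Circles are animal 1, squares animal 2, black bars the mean of both, and dotted lines the mean lower quartile of the arrays of a zone. The brightest ACP5 probeset reads 11.44 and 10.98 in DZ, far above its other arrays, CTSK lies between 7.79 and 8.66 everywhere, and MMP9 separates the DZ arrays of the animals at 8.98 and 3.95.

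Levels are log2 values normalised between arrays by the authors, in which the lower quartile of an array lay between 2.71 and 2.87. Since the tables hold no present or absent calls, a value near or under that quartile has no certain size. Some low values also occur many times in the table, identical to the last digit, and how they arose is not given in the sources used here, so they have no order among themselves. COL2A1, the collagen of cartilage, read 13.69 to 14.15 on all 6 arrays. The descriptions of both DZ arrays start with another code than those of the MZ and SZ arrays. The labels do not say what the code stands for, so code and zone cannot be told apart for DZ. The median of 27 control probesets for Bacillus transcripts also differed, at 3.61 and 3.56 on the DZ arrays, 4.90 and 4.17 on the MZ arrays and 5.88 and 6.24 on the SZ arrays. Its part in the results was not tested.

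ACP5 showed the widest span of the 4 genes. On its brightest probeset, Bt.5193.2.S1_a_at, it read 11.44 and 10.98 in DZ, 3.57 and 3.15 in MZ and 6.11 and 3.99 in SZ (animals 1 and 2). Both DZ arrays stood far above the others, the MZ arrays were the lowest, and the SZ array of animal 1 lay between. DZ exceeded MZ by 7.85 in log2 (SE 0.45, limma adjusted p = 0.00527) and SZ by 6.16 (SE 0.45, adjusted p = 0.00457). No fold is given for DZ over MZ on this probeset, because the MZ arrays read less than 1 log2 unit above the lower quartile. MZ minus SZ was −1.69 (95% interval −2.78 to −0.59) and did not pass after adjustment (adjusted p = 0.319).

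The other ACP5 probesets differed in brightness. Bt.5193.2.S1_at read 9.51 and 8.42 in DZ, 3.82 and 3.82 in MZ and 4.72 and 4.29 in SZ. Its groups did not overlap in any comparison, and DZ was 35.3-fold above MZ (log2 5.14, SE 0.31, adjusted p = 0.00527) and 22.0-fold above SZ (log2 4.46, SE 0.31, adjusted p = 0.00417). Both of these ACP5 probesets were called for DZ against SZ and for DZ against MZ in all 13 alternative settings.

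The third ACP5 probeset, Bt.5193.1.S1_at, read 7.81 and 5.52 in DZ, 4.83 and 4.11 in MZ and 4.10 and 4.37 in SZ. Both DZ arrays were above all others, but they differed from each other by 2.29, more than either MZ or SZ pair. The difference did not pass for DZ minus SZ (2.43, SE 0.57, adjusted p = 0.095) or DZ minus MZ (2.19, SE 0.57, adjusted p = 0.253). DZ against SZ passed without DZ replicate 2 (adjusted p = 0.0416), without SZ replicate 2 (0.0448), in the dCHIP table (0.0356) and with dim probesets left out (0.0368). The fourth, Bt.16231.2.A1_at, lay between 1.83 and 2.18 on all 6 arrays, under the lower quartile of each, so it gives no measure of ACP5 in any zone.

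**Figure D2:**
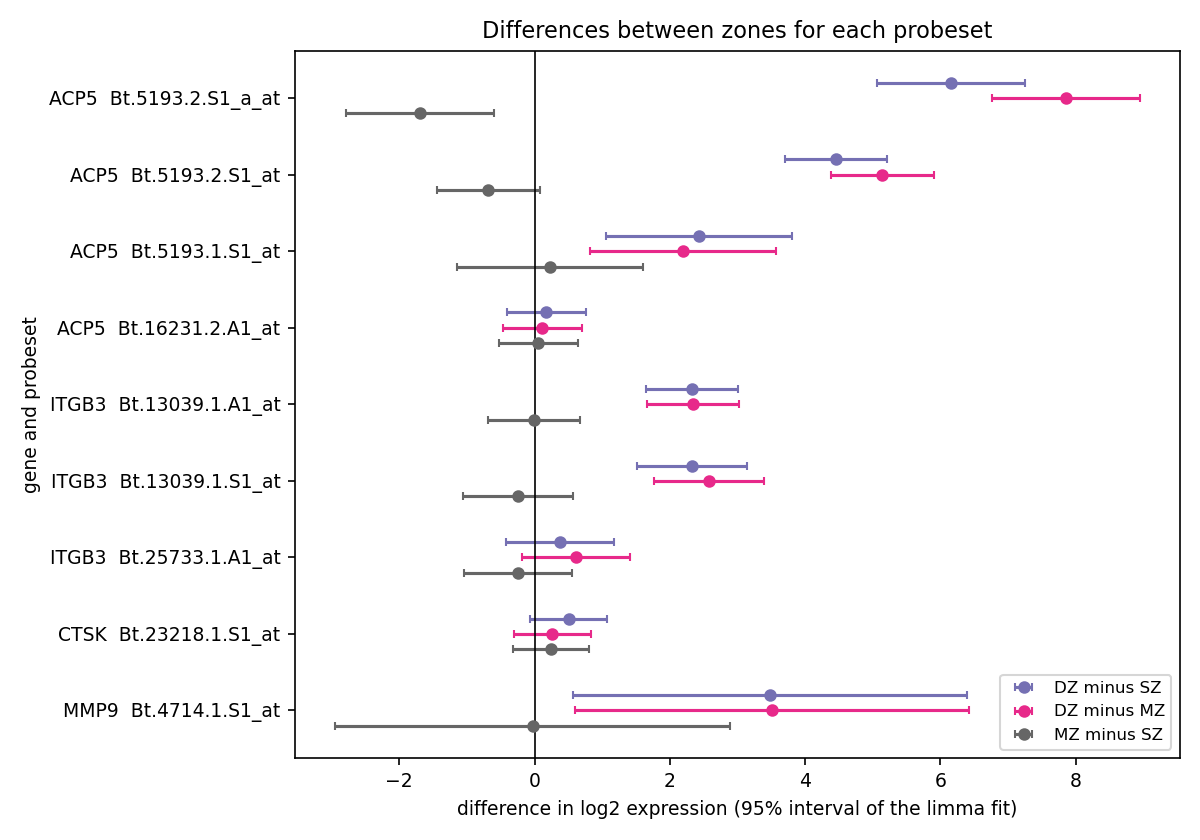
Differences in log2 expression between zones for each of the 9 probesets, with the 95% interval of the limma fit as bars. For ACP5 (2 probesets) and ITGB3 (2 probesets) DZ minus SZ and DZ minus MZ lie between 2.32 and 7.85. CTSK lies close to 0 in all 3 comparisons, and the intervals of MMP9 are the widest.

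ITGB3 was higher in DZ than in MZ and than in SZ on 2 of its 3 probesets. Bt.13039.1.A1_at read 4.77 and 4.60 in DZ, 2.61 and 2.09 in MZ and 2.20 and 2.53 in SZ. Bt.13039.1.S1_at, whose name carries the same cluster number, read 5.10 and 4.35 in DZ, 2.05 and 2.25 in MZ and 2.19 and 2.61 in SZ. Both SZ values of Bt.13039.1.A1_at are repeated ones, which occur 88 and 86 times in the table. On both probesets, DZ lay above every MZ and SZ array, and the 4 MZ and SZ arrays lay under the lower quartile, so the size of the difference is uncertain and no fold is given.

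For the first of these ITGB3 probesets DZ minus SZ was 2.32 (SE 0.28, adjusted p = 0.0156) and DZ minus MZ 2.34 (SE 0.28, adjusted p = 0.034). For the second DZ minus SZ was 2.32 (SE 0.33, adjusted p = 0.0251) and DZ minus MZ 2.57 (SE 0.33, adjusted p = 0.0412). The calls depended on single arrays. For DZ against SZ neither probeset passed without DZ replicate 1 (adjusted p = 0.0853 and 0.0945) or without SZ replicate 1 (0.0661 and 0.113), and the first did not pass without DZ replicate 2 (0.0771). For DZ against MZ neither passed without DZ replicate 1 (0.152 and 0.118), without MZ replicate 1 (0.117 and 0.234) or without MZ replicate 2 (0.219 and 0.194), the first did not pass without DZ replicate 2 (0.128), and the second did not pass without the animal block (0.0521). With 1 array left out, 1 residual degree of freedom remains, and all of these differences stayed between 1.80 and 3.10. The third probeset, Bt.25733.1.A1_at, read 2.82 and 1.94 in DZ, 1.88 and 1.65 in MZ and 1.84 and 2.17 in SZ, with 5 of 6 arrays under the lower quartile.

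CTSK was well above the lower quartile in every zone and passed the test in no comparison. Its probeset, Bt.23218.1.S1_at, read 8.47 and 8.66 in DZ, 8.16 and 8.44 in MZ and 7.79 and 8.33 in SZ. DZ was 1.42-fold above SZ (log2 0.50, 95% interval −0.06 to 1.07, adjusted p = 0.332) and 1.20-fold above MZ (log2 0.26, interval −0.30 to 0.83, adjusted p = 0.781). MZ minus SZ was 0.24 (interval −0.33 to 0.81, adjusted p = 0.85). In each animal the order was DZ, then MZ, then SZ, with neighbours 0.11 to 0.37 apart, and animal 2 read higher than animal 1 in each zone by 0.18 to 0.54. A difference beyond 1.07 in log2 lies outside all 3 of these intervals, whereas the lower bound for the brightest ACP5 probeset was 5.07 for DZ minus SZ. CTSK was called in 0 of 13 alternative settings in each comparison.

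MMP9 was high on 1 array, that of the DZ of animal 1, and no difference between zones passed the test. Its probeset, Bt.4714.1.S1_at, read 8.98 in the DZ of animal 1 and 3.95 in the DZ of animal 2, 2.95 and 2.96 in MZ and 2.95 and 3.02 in SZ. Both DZ arrays were above all others. The MZ and SZ arrays of animal 1 held exactly the same value, which occurs 181 times in the whole table, and all 4 MZ and SZ arrays lay close to the lower quartile, so MMP9 has only a low level of uncertain size there. DZ minus SZ was 3.48 (SE 1.20, adjusted p = 0.213) and DZ minus MZ 3.51 (SE 1.20, adjusted p = 0.409).

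DZ minus SZ for MMP9 was 6.03 in animal 1 and 0.93 in animal 2. The gap of 5.02 between the DZ arrays was the 12th largest of 24016 probesets in that zone, where the median gap was 0.30. Without DZ replicate 2, DZ against SZ passed (6.01, adjusted p = 0.0235) and so did DZ against MZ (6.04, adjusted p = 0.025). Without DZ replicate 1 they were 0.95 (adjusted p = 0.344) and 0.98 (adjusted p = 0.608). In the dCHIP table the DZ arrays read 9.31 and 5.62, the MZ arrays 3.19 and 3.51 and the SZ arrays 3.59 and 2.84, and DZ minus SZ passed at 4.25 (adjusted p = 0.0285).

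Compared between animals within DZ, the other members were closer than MMP9. The brightest ACP5 probeset differed by 0.46, the ITGB3 probesets by 0.17, 0.75 and 0.88 and CTSK by −0.18 (animal 1 minus animal 2). The other ACP5 probesets differed by 1.09 (Bt.5193.2.S1_at), 2.29 (Bt.5193.1.S1_at, the 175th largest gap of that zone) and 0.18 (Bt.16231.2.A1_at). Within SZ the brightest ACP5 probeset differed by 2.12, the 166th largest gap of that zone, whereas MMP9 differed by −0.07 and CTSK by −0.54.

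**Figure D3:**
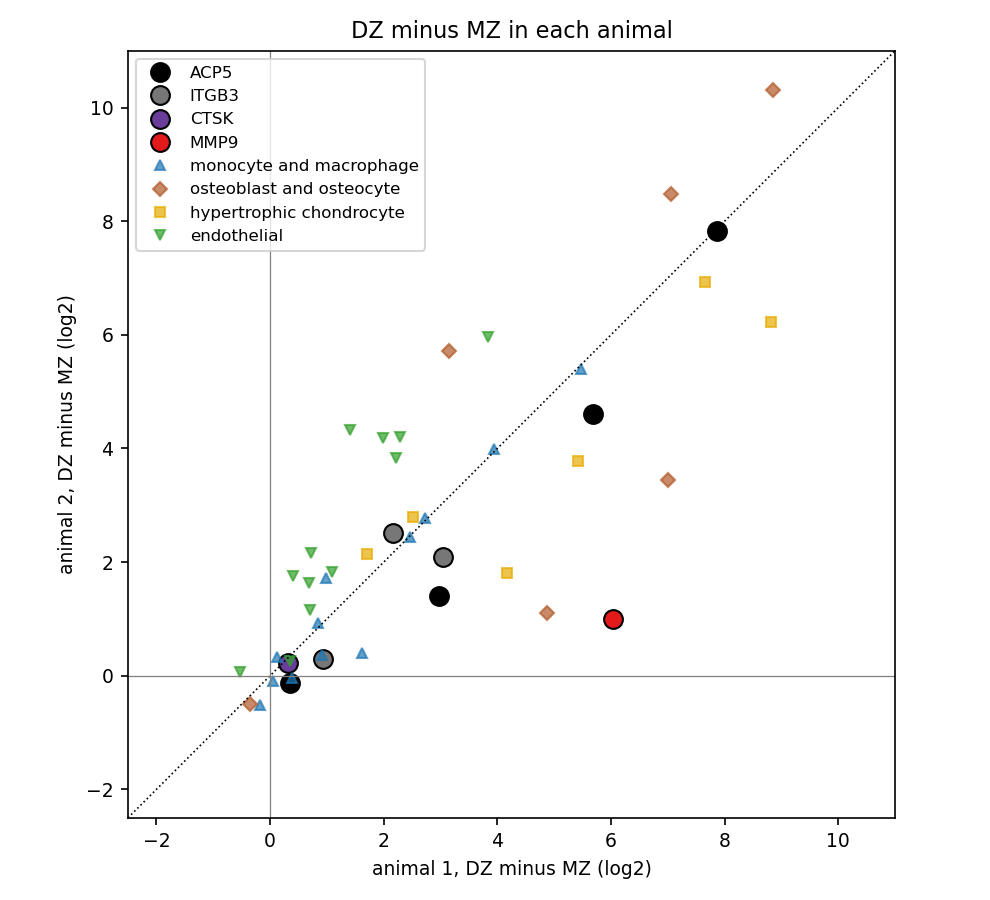
DZ minus MZ in log2 for animal 1 (horizontal) and animal 2 (vertical), with the dotted line at equal values. Large circles are the 9 member probesets and small symbols the genes of 4 cell type lists, 1 probeset per gene. The brightest ACP5 probeset lies on the line at 7.87 and 7.83, MMP9 lies well below it at 6.03 and 0.99, and CTSK lies near the origin.

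Genes that act upstream of the members and beside them were read from 7 lists, whose 58 measured genes are each represented by the brightest probeset, so that the counts leave out other probesets of a gene. Only for IRF8, described with the signalling genes, was another probeset called where the brightest was not. Of the 58 genes, limma called 3 higher and 1 lower in DZ than in SZ, against 1.72% and 1.03% of all probesets. It called 2 higher and 0 lower in DZ than in MZ, against 0.612% and 0.0916%. In MZ against SZ it called 0, against 0.0416%. At an unadjusted p under 0.05 the numbers were 15, 15 and 10, with no share over all probesets to set beside them. The median difference was 0.04 for DZ minus SZ and 0.17 for DZ minus MZ.

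Ligands and receptors of osteoclast differentiation gave no call. Of 13 listed genes 6 were measured. RANKL (TNFSF11), its receptor (TNFRSF11A) and its decoy receptor (TNFRSF11B) carried no named probeset and are not analysed here, nor were TREM2, OSCAR, SIGLEC15 and CALCR. CSF1, the growth factor of the lineage, read 4.78 and 4.82 in DZ, 5.47 and 5.30 in MZ and 5.42 and 5.26 in SZ (DZ minus SZ −0.54, adjusted p = 0.291). The other CSF1 probeset went the opposite way, at 5.31 and 4.84 in DZ, 3.89 and 3.53 in MZ and 3.33 and 3.84 in SZ (DZ minus SZ 1.49, adjusted p = 0.0717), so the array gives CSF1 no settled direction. Its receptor CSF1R read 5.28 and 4.17 in DZ, 3.66 and 3.77 in MZ and 3.54 and 3.45 in SZ, with DZ above all other arrays (DZ minus SZ 1.23, SE 0.34, adjusted p = 0.14). TYROBP, the adaptor of activating receptors on myeloid cells, read 4.78 and 3.77 in DZ, 3.00 and 2.50 in MZ and 3.16 and 3.20 in SZ (DZ minus SZ 1.09, adjusted p = 0.141). IL34, the second ligand of CSF1R, lay between 4.57 and 5.08 on all arrays. Limma called 0 of the 6 in any comparison, with 4, 5 and 0 at an unadjusted p under 0.05 for DZ against SZ, DZ against MZ and MZ against SZ.

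Of 11 measured signalling and transcription factors, 0 were called by limma on their brightest probeset in any comparison (1, 1 and 2 at an unadjusted p under 0.05). IRF8, a transcription factor of myeloid cells that restrains osteoclast formation in the mouse, was called on its other probeset, which was named after its values had been seen. It read 4.56 and 5.01 in DZ, 2.85 and 2.78 in MZ and 2.63 and 2.60 in SZ, where both arrays lay under the lower quartile. DZ exceeded SZ by 2.17 (SE 0.25, adjusted p = 0.0135) and MZ by 1.97 (SE 0.25, adjusted p = 0.0389), beside 0.11 and 0.18 on the brightest probeset. For DZ against SZ the call was lost without DZ replicate 2 (0.0751) or SZ replicate 1 (0.0554). For DZ against MZ it was lost without DZ replicate 1 (0.0904), DZ replicate 2 (0.147), MZ replicate 1 (0.19) or MZ replicate 2 (0.26) and without the animal block (0.0521). NFATC1, the transcription factor that drives ACP5 and CTSK in osteoclasts, was bright in every zone, at 9.67 and 9.66 in DZ, 8.52 and 9.72 in MZ and 7.62 and 9.30 in SZ (DZ minus SZ 1.20, SE 0.41, adjusted p = 0.213). Its SZ arrays differed from each other by more than the zones did. The other NFATC1 probeset differed by −0.19 for DZ minus SZ. TRAF6, the adaptor of the RANKL receptor, lay between 4.61 and 5.46, and the NF-kappaB subunits NFKB1 and RELB lay between 3.64 and 4.27 and between 2.63 and 3.43.

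Genes of precursor fusion and of acid secretion did not pass either. Of 5 measured fusion genes 0 were called by limma (1, 1 and 0 at an unadjusted p under 0.05), and DCSTAMP and OCSTAMP were not measured. ATP6V0D2, a proton pump subunit that mouse osteoclasts need for fusion, read 3.32 and 3.24 in DZ, 2.42 and 2.07 in MZ and 2.26 and 2.01 in SZ. Its DZ arrays were above all others (DZ minus SZ 1.14, SE 0.23, adjusted p = 0.0639), but the MZ and SZ arrays lay under the lower quartile. The other ATP6V0D2 probeset differed by 0.09 for DZ minus SZ and −0.04 for DZ minus MZ. The surface proteins CD9, CD47 and SIRPA differed by −0.43, −0.62 and −0.48 for DZ minus SZ, but the other SIRPA probeset by 0.48. Of 12 measured genes of acid secretion and resorption 0 were called (2, 1 and 0 at an unadjusted p under 0.05). CA2, the carbonic anhydrase that supplies protons, read 6.83 and 4.55 in DZ, 2.95 and 4.52 in MZ and 3.79 and 4.71 in SZ, with the DZ of animal 1 the highest, while the MZ value of animal 1 is the repeated one met in MMP9 (DZ minus SZ 1.45, adjusted p = 0.442). TCIRG1, the osteoclast form of a proton pump subunit, lay between 7.53 and 7.88 on all arrays. The pump subunits ATP6V0A1 and ATP6V1A differed by 0.56 and 0.04 for DZ minus SZ.

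Among partners of the beta-3 integrin, ITGAV read 7.91 and 7.51 in DZ, 7.17 and 7.57 in MZ and 8.33 and 8.14 in SZ, and did not pass (DZ minus SZ −0.52, adjusted p = 0.39). It was named after its values had been seen. ITGA2B, the platelet partner, lay between 3.65 and 3.88. VAV3, an exchange factor that acts downstream of integrins in mouse osteoclasts, was the 1 called gene of 8. It read 7.13 and 7.27 in DZ, 6.35 and 5.53 in MZ and 2.11 and 2.81 in SZ. Its zones did not overlap, and DZ exceeded SZ by 4.74 (SE 0.38, adjusted p = 0.00517). Unlike ACP5 and ITGB3, VAV3 was high in MZ too, with MZ minus SZ at 3.48 (SE 0.38, adjusted p = 0.0568). Both SZ arrays of VAV3 lay under the lower quartile, so the size of its differences from SZ is uncertain.

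Of 10 measured cathepsins and cystatins, 2 were higher in DZ than in SZ and than in MZ. CTSC, cathepsin C, which activates serine proteases of leukocytes, read 5.36 and 5.49 in DZ, 2.95 and 2.98 in MZ and 3.08 and 3.77 in SZ, and the MZ value of animal 1 is that repeated value too. DZ exceeded SZ by 2.00 (SE 0.26, adjusted p = 0.0196) and MZ by 2.46 (SE 0.26, adjusted p = 0.0249). For DZ against SZ its call was lost without DZ replicate 1 (adjusted p = 0.112), DZ replicate 2 (0.0837) or SZ replicate 1 (0.0851). For DZ against MZ it was lost without DZ replicate 1 (0.114), DZ replicate 2 (0.0927), MZ replicate 1 (0.118) or MZ replicate 2 (0.191).

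CST3, cystatin C, an inhibitor of cysteine cathepsins, read 9.92 and 10.67 in DZ, 7.52 and 8.69 in MZ and 8.18 and 8.34 in SZ. DZ exceeded SZ by 2.04 (adjusted p = 0.0281) and MZ by 2.19 (adjusted p = 0.0469), but in the dCHIP table DZ minus SZ was −0.24 (adjusted p = 0.739). For DZ against SZ the call was also lost without DZ replicate 1 (0.128), DZ replicate 2 (0.123) or SZ replicate 2 (0.0721) or without the animal block (0.116). For DZ against MZ it was lost without DZ replicate 1 (0.194), DZ replicate 2 (0.165), MZ replicate 1 (0.278) or MZ replicate 2 (0.156), without the block (0.207), in the dCHIP table (1.78, 0.092) and with arrays centred on their median (0.0508).

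Of 6 measured genes of gelatinase control, TIMP2, an inhibitor of gelatinases, was lower in DZ than in SZ. It read 8.78 and 9.49 in DZ, 9.84 and 10.00 in MZ and 10.74 and 11.32 in SZ, and the zones did not overlap (DZ minus SZ −1.89, SE 0.25, adjusted p = 0.02). The call was lost without DZ replicate 1 (0.118), DZ replicate 2 (0.0739), SZ replicate 1 (0.0781) or SZ replicate 2 (0.0639) and without the animal block (0.0644). All 3 TIMP2 probesets were called lower in DZ than in SZ, the other ones at −2.67 to −1.58. The other 5 genes (MMP2, MMP3, MMP14, TIMP1 and TIMP3) did not pass.

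Of 12 measured monocyte and macrophage genes, 5 were called higher in DZ than in SZ, against 1.72% of all probesets. In DZ against MZ, 4 were called higher, against 0.612%. The mean log2 level of the list was 4.60 and 4.50 in DZ, 2.99 and 3.02 in MZ and 3.21 and 3.07 in SZ. Those called for DZ against SZ were AIF1, LYZ, PTPRC, CD74 and BOLA-DRA, and the same genes but LYZ were called for DZ against MZ. Of 4 PTPRC probesets only 1 was called in each of these comparisons. The other PTPRC probesets spanned −0.04 to 0.95 for DZ minus SZ and −0.09 to 1.05 for DZ minus MZ. BOLA-DRA kept its call in 13 of 13 alternatives in both comparisons. CD74 kept it in 13 and 12, PTPRC in 12 and 9, AIF1 in 11 and 9 and LYZ in 10 for DZ against SZ, with adjusted p up to 0.318 (PTPRC, DZ against MZ, dCHIP table). AIF1 was lost without either DZ array in both comparisons and without either MZ array for DZ against MZ (0.0556 to 0.128). LYZ was lost without either DZ array or SZ replicate 1 (0.0655 to 0.0746), PTPRC for DZ against MZ without DZ replicate 2 or either MZ array (0.0689 to 0.104), and CD74 for DZ against MZ without MZ replicate 2 (0.0648). AIF1, a protein of macrophages and microglia, read 4.95 and 4.70 in DZ, 2.48 and 2.26 in MZ and 2.79 and 2.54 in SZ. Both MZ arrays and the SZ array of animal 2 lay under the lower quartile for AIF1. The defining markers ITGAM, CYBB and MRC1 were under the lower quartile on both DZ arrays, and CD163 was not measured. CD14, a receptor on monocytes, read 4.67 and 4.75 in DZ, 4.84 and 5.27 in MZ and 5.72 and 5.81 in SZ. Its other probeset was called lower in DZ than in SZ (−2.12, SE 0.24, adjusted p = 0.0129), a call lost without DZ replicate 1 (0.0767), DZ replicate 2 (0.0543) or SZ replicate 1 (0.0655). ITGAM and CYBB differed by −0.47 and −0.05 for DZ minus SZ.

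Neutrophils carry MMP9 and platelets carry ITGB3. The mean of 9 neutrophil genes was 3.05 and 2.99 in DZ, 3.33 and 3.08 in MZ and 3.20 and 3.28 in SZ. Limma called 0 of the 9 in any comparison (1, 0 and 1 at an unadjusted p under 0.05), and 5 of them lay under the lower quartile on both DZ arrays. The brightest neutrophil gene, S100A9, read 5.52 and 5.37 in DZ, 5.82 and 5.97 in MZ and 6.03 and 5.80 in SZ. Of 7 listed platelet genes 3 were measured (ITGA2B, PF4 and TUBB1), and PF4 lay under the lower quartile on all 6 arrays. Their mean was 3.13 and 3.00 in DZ, 3.01 and 2.99 in MZ and 3.30 and 3.15 in SZ. Limma called 0 of the 3 (0 at an unadjusted p under 0.05 in each comparison). The part of neutrophils and platelets in the MMP9 and ITGB3 results was not tested. Lymphocyte (0 of 8) and red cell genes (0 of 6) gave no call by limma in any comparison, with 1, 0 and 0 of each list at an unadjusted p under 0.05.

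Hypertrophic cartilage genes, and some genes of bone and vessels, were also higher in DZ. Beside the counts below, 1.72% of all probesets were called higher in DZ than in SZ and 0.612% higher in DZ than in MZ. The mean of 6 hypertrophic chondrocyte genes was 9.80 and 8.25 in DZ, 4.75 and 4.30 in MZ and 5.52 and 4.01 in SZ, with 5 called (COL10A1, MMP13, ALPL, MEF2C and PTH1R) in both comparisons. The mean of 6 measured osteoblast and osteocyte genes was 9.86 and 10.26 in DZ, 4.76 and 5.50 in MZ and 6.71 and 5.32 in SZ. Of these, COL1A1, COL1A2 and IBSP were higher in DZ than in SZ and COL1A1 and COL1A2 than in MZ, while SOST, an inhibitor made by osteocytes, differed by −0.59 for DZ minus SZ. The mean of 12 endothelial genes was 4.98 and 6.36 in DZ, 3.72 and 3.75 in MZ and 3.93 and 3.96 in SZ. KDR, TEK and PECAM1 were higher in DZ than in SZ and KDR and TEK than in MZ, while ERG and ENG differed by −0.96 and −0.33 for DZ minus SZ. Of 3 PECAM1 probesets only 1 was called for DZ against SZ, and the others spanned −0.40 to 0.79. Of 4 KDR probesets 3 were called. Unlike MMP9, the endothelial mean was higher in the DZ of animal 2. Another probeset of EMCN, an endothelial gene, was called higher in DZ than in SZ (3.63, adjusted p = 0.00457) and than in MZ (3.25, adjusted p = 0.0103). Its MZ and SZ arrays lay under the lower quartile. Of 8 chondrocyte genes CNMD was higher in DZ than in SZ (as was another probeset of COL9A1, by 1.97, adjusted p = 0.0277). Of 6 adipocyte genes CFD was higher in DZ than in SZ and than in MZ. For DZ minus SZ, FABP4 (2.28) and PLIN1 (0.04) did not pass, while ADIPOQ (−0.93), LEP (−0.77) and CIDEC (−0.67) went the other way.

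Of the calls in bone, hypertrophic cartilage, vessel, chondrocyte and adipocyte genes, MMP13 and ALPL held in 13 of 13 alternatives in both comparisons, and KDR, MEF2C and PTH1R in 13 for DZ against SZ. CFD was the least stable, called in 6 of 13 for DZ against SZ and 5 for DZ against MZ, and it was lost without any 1 array of the zones compared, and for DZ against SZ also without either MZ array (0.0572 to 0.325). TEK was called in 8 and 7, and it was lost without either DZ array, without either SZ array for DZ against SZ and without MZ replicate 2 for DZ against MZ (0.0588 to 0.168). COL10A1 was lost without either DZ array in both comparisons and without SZ replicate 2 for DZ against SZ (0.0899 to 0.198), and IBSP without either DZ array or SZ replicate 2 (0.0861 to 0.181). PECAM1 was lost without DZ replicate 2 or either SZ array (0.0543 to 0.0795). COL1A1 was lost without DZ replicate 2 in both comparisons and without either MZ array for DZ against MZ (0.0565 to 0.113), and COL1A2 without DZ replicate 2 for DZ against SZ (0.0527) and MZ replicate 2 for DZ against MZ (0.0648). For DZ against MZ, KDR was lost without either MZ array (0.0559 and 0.124), and MEF2C and PTH1R without any 1 of the DZ and MZ arrays (0.0654 to 0.26). The other EMCN probeset was lost for DZ against MZ without DZ replicate 2 or either MZ array (0.0543 to 0.101), and that of COL9A1 without either DZ array or SZ replicate 1 (0.0982 to 0.15). Without the animal block, CNMD (0.128), COL9A1, CFD, TEK, COL10A1, COL1A1 and IBSP lost each of their calls, and MEF2C and PTH1R theirs for DZ against MZ. The part of these cells in the ACP5, ITGB3 and MMP9 results was not tested.

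The named genes most like a member were those with the smallest root mean square difference in log2 over the 6 arrays, after each probeset had been centred on its own mean. For ACP5 they were MMP13 at 0.31, a collagenase of hypertrophic chondrocytes and osteoblasts, COL1A1 at 0.49 and COL1A2 at 0.99, the chains of bone collagen, COL10A1 at 1.06 and A2M, a protease inhibitor, at 1.16. MMP13 read 9.89 and 9.12 in DZ, 2.24 and 2.19 in MZ and 4.32 and 2.28 in SZ. Its MZ arrays and the SZ array of animal 2 lay under the lower quartile. Like ACP5, MMP13, COL1A1, COL1A2 and COL10A1 read higher in the SZ of animal 1 than in that of animal 2, COL1A1 at 9.09 and 5.75 and COL10A1 at 8.12 and 3.99. The other members were farther from this brightest ACP5 probeset, at 2.31 for MMP9, 2.35 to 3.21 for ITGB3 and 3.32 for CTSK. Such a distance also grows with a difference in span, and ACP5 had the widest span. From the ACP5 probesets Bt.5193.2.S1_at and Bt.5193.1.S1_at, ITGB3 Bt.13039.1.A1_at lay at 1.25 and 0.62. MMP9 lay at 1.33 and 1.00 from them, and CTSK at 2.17 and 1.19.

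For ITGB3 the nearest genes were LIX1 and LPAR6, a lysophosphatidic acid receptor, both at 0.16, IGFBP3 and AIF1, both at 0.22, and WIPF1, an actin regulator of blood cells, at 0.23. For MMP9 they were IHH at 0.61, the hedgehog ligand of prehypertrophic chondrocytes, APOA1 at 0.64, SERPINA3-1 at 0.77, WNT10B at 0.82 and PPA1 at 0.88. IHH read 8.47 and 4.51 in DZ, 4.29 and 2.70 in MZ and 3.57 and 3.28 in SZ, so the DZ of animal 1 stood out there too. Genes near CTSK (PIGO, TLE4, APC, DNAJB6 and CDK18, at 0.04 to 0.08) shared its small span, which makes such a distance small for many genes.

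**Figure D4:**
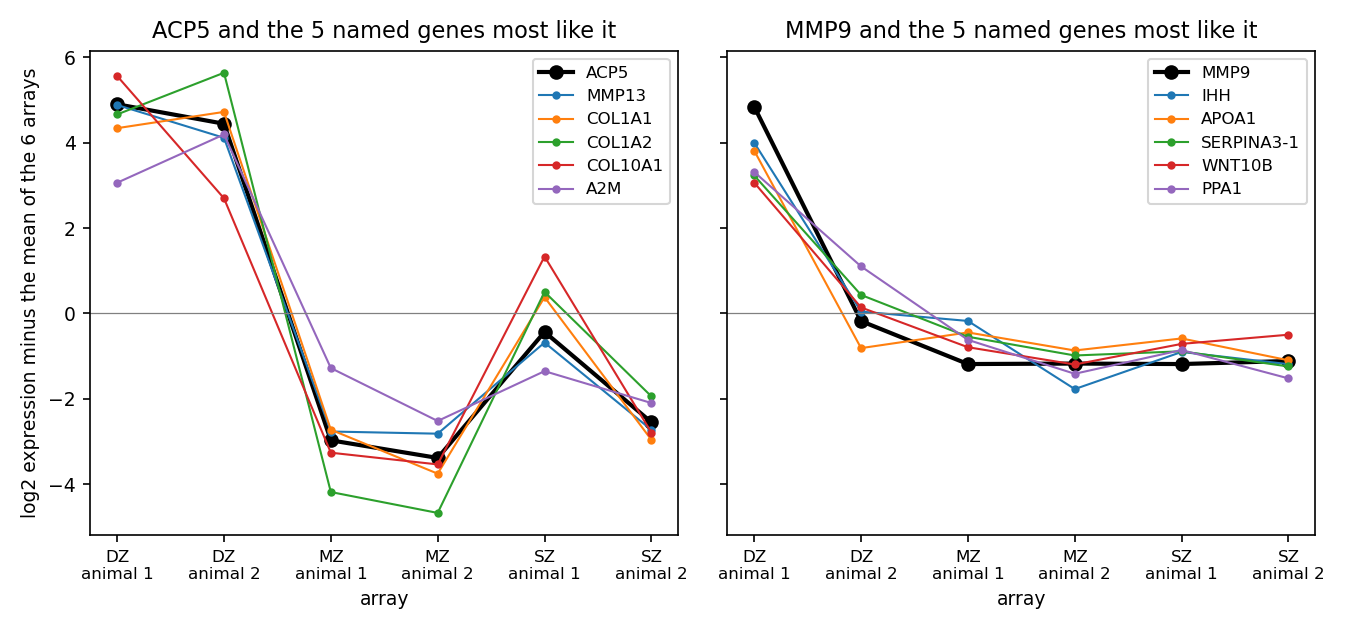
Log2 expression minus the mean of the 6 arrays for ACP5 (left, black) and MMP9 (right, black), each with the 5 named genes whose pattern was nearest (coloured). The curves on the left are high on both DZ arrays and lowest on the MZ array of animal 2. Those on the right are highest on the DZ array of animal 1. In the DZ of animal 2, PPA1 read 9.43 beside 6.80 to 7.71 in MZ and SZ, and MMP9 3.95 beside 2.95 to 3.02. SERPINA3-1 (4.18 beside 2.50 to 3.20), WNT10B (3.88 beside 2.54 to 3.24) and IHH (4.51 beside 2.70 to 4.29) were also higher there. APOA1 was not, at 4.19 beside 3.91 to 4.56.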

How the data were processed

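RNA from 3 cartilage zones of 2 cattle was measured on 6 Affymetrix bovine arrays. Per the labels' protocols, cores were cut into 50 µm slices, about 200 µm was discarded between zones, and 5 ng of total RNA was amplified before labelling. The authors' deposited value table holds log2 expression values, and RMA is named, with no version, per the submitters' processing notes. A second deposited table, labelled dCHIP and also in log2, gave the gene symbols and one alternative. How it was made is not given in the sources used here. Centred on each probeset's mean, an array's values in the 2 tables correlated at r of 0.766 to 0.846.

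One model per probeset was fitted with limma 3.58.1 in R 4.3.3 to 24016 probesets (112 controls left out, no filter), with zone and an animal block. The labels give each animal, and differences between animals correlated between zones with r of 0.216 to 0.347. Two-sided p-values were adjusted over all probesets by the Benjamini-Hochberg method, with a threshold of 0.05. Differences are the zone named first minus the other. Intervals cover the fit's error, and 2 arrays per zone limit precision. A fold is given where the lower zone lay over 1 log2 unit above the lower quartile on each of its arrays. Listed genes, updated by 1 synonym from a RefSeq table (assembly ARS-UCD2.0), are represented by their brightest probeset. The rule for naming took every member probeset, the called genes of each list, the first 4 measured genes of a pathway list without calls, and the 5 most alike genes per member; symbols beginning LOC or MGC were passed over. The members and the 17 gene lists were chosen with earlier results of these data known. The procedure was tested on simulated data. Probe, promoter and protein sequences were not used here.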

Additional observations from a re-analysis of the deposited data

How the results depend on the processing

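The 13 alternatives changed the table, the animal block, the normalisation, the filter, the variance prior or left out 1 array; those for listed genes were added after seeing the data. Member differences kept direction and side of the threshold in 309 of their values, lost a call in 13, gained one in 7 and turned sign in 16, and called listed genes kept their call in 455, lost it in 116 and turned in 1 (CST3, −0.24 for DZ minus SZ in the dCHIP table). The counts of all probesets called moved most. For DZ against SZ, 660 became 1262 in the dCHIP table, 295 without the animal block and 204 to 646 with 1 array left out. For DZ against MZ, 169 became 259 in the dCHIP table, 62 without the block, 286 with dim probesets left out, 272 with a mean-variance trend and 12 to 258 with 1 array left out. For MZ against SZ, 10 became 135, 3, 142 and 99 under the same 4 settings and 0 to 31 with 1 array left out. Without the animal block, which pairs zones of 1 animal, 4 and 3 member probesets were called for DZ against SZ and DZ against MZ, and ITGB3 Bt.13039.1.S1_at lost its call for DZ against MZ (adjusted p = 0.0521). With 1 array left out, 2 to 5 member probesets were called for DZ against SZ, 2 to 4 for DZ against MZ and 0 for MZ against SZ; the 2 always called were ACP5. Among members, signs turned only in differences that were not called. For MZ minus SZ, the dCHIP table gave 0.043 for ITGB3 Bt.13039.1.A1_at (0.042 after quantile normalisation) and 0.13 for MMP9. With 1 array left out, MZ minus SZ spanned −1.32 to 1.26 for MMP9, −0.65 to 1.12 for ACP5 Bt.5193.1.S1_at, −0.12 to 0.23 for ACP5 Bt.16231.2.A1_at, −0.35 to 0.32 for ITGB3 Bt.13039.1.A1_at, −0.59 to 0.094 for ITGB3 Bt.13039.1.S1_at and −0.68 to 0.20 for ITGB3 Bt.25733.1.A1_at. DZ minus SZ spanned −0.013 to 0.35 for ACP5 Bt.16231.2.A1_at and −0.090 to 0.84 for ITGB3 Bt.25733.1.A1_at, and DZ minus MZ spanned −0.069 to 0.30 for ACP5 Bt.16231.2.A1_at. These last 2 probesets fell out with dim probesets left out, which kept 14172. The causes were not tested. Signal near the lower quartile limits ITGB3 in MZ and SZ, MMP9 in MZ and SZ and both dim probesets.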
